A study of Mus musculus with 12 samples.

Results

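The genes of the mitochondrial ribosome were followed in mouse liver RNA. Members were taken by name and class: every protein-coding gene whose symbol begins with Mrpl or Mrps and then a digit, which gave 78 of the 41325 listed genes (21969 of them protein-coding), 49 of the large and 29 of the small subunit. All 78 had enough reads to be tested, among 16456 genes in all, with 212 (Mrps36) to 3871 (Mrpl12) reads per library. The 12 libraries came from livers of wild-type C57BL/6J mice in 3 groups of 4. The control group was given vehicle. The other groups had NASH brought on by diet, that is nonalcoholic steatohepatitis, in which fat, inflammation and scarring build up in the liver, and were given either vehicle (NASH vehicle) or CDDO-Me at 10 mg/kg by mouth for 8 weeks (CDDO-Me). CDDO-Me, or bardoxolone methyl, is a triterpenoid drug that activates the transcription factor encoded by Nfe2l2, and the study's stated aim was the mechanism by which it protects the liver. The sources used here do not give the diet, the sex or the age of the mice, so the model is defined only by its name.

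The mitochondrial ribosome is a separate machine from the ribosome of the cytosol. It makes a small set of proteins, the core subunits of the respiratory chain and of ATP synthase, from messenger RNAs of the mitochondrial genome. Its RNA parts are encoded in mitochondria, while all its proteins are encoded in the nucleus, made in the cytosol and imported. The small subunit reads the message and the large subunit joins the amino acids and feeds the new chain into the inner membrane. Hepatocytes are rich in mitochondria, and several of these genes are mutated in inherited disorders of the heart, liver, brain or hearing.

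Libraries held 28161057 to 33852338 gene reads. Scaling by TMM (trimmed mean of M values) levels out differences in RNA composition. Its factors were 0.73 to 0.83 for control, 1.11 to 1.31 for NASH vehicle and 0.974 to 1.20 for CDDO-Me libraries, so the choice of scaling touches every comparison with control. Of 19 hepatocyte markers in the tables, 18 were called lower on the TMM scale in NASH vehicle than in control livers (30% of all tested genes). Their summed level was taken in TPM (length-scaled transcript units with the same total in every library). It was 100783 to 115270 for control, 77804 to 105051 for NASH vehicle and 71321 to 84514 for CDDO-Me. With library totals 12 were called lower and 2 higher (8.06% and 60.2% of all tested genes), and in TPM 12 and 2 (5.31% and 66.3%). Of 19 macrophage markers, 19 were called higher on the TMM scale in NASH vehicle than in control livers (29.6% of all tested genes). In CDDO-Me livers 13 were called lower than in NASH vehicle livers (7.24%). Macrophage sums were 220 to 408, 4367 to 9721 and 2155 to 4873 TPM in the 3 groups. No marker of either list was at 0 in any library. In whole liver, fewer cells of a type and less RNA per cell cannot be told apart, and the part of cell makeup in the results below was not tested. Control 3 and CDDO-Me 4 stood apart by smooth muscle RNA, with 266 TPM against 6.97 to 8.94 in the other control libraries and 141 against 17.3 to 39.1 in the other CDDO-Me libraries.

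As a share of all gene reads, the 78 genes together were at a like level in the 3 groups. They took 0.236% to 0.261% of the reads in control livers (0.250 ± 0.012, mean ± SD, n = 4), 0.241% to 0.261% in NASH vehicle livers (0.252 ± 0.009) and 0.243% to 0.269% in CDDO-Me livers (0.259 ± 0.011), so that the groups overlapped. On the TMM scale their summed CPM (read counts scaled to a common depth) were 3066 to 3568 for control, 1929 to 2220 for NASH vehicle and 2027 to 2761 for CDDO-Me livers. Every NASH vehicle library was below every control library there, and the CDDO-Me libraries spread from the range of NASH vehicle upward, with CDDO-Me 4 the lowest. In TPM, which divide reads by exon length, the order turned: 2614 to 3078 for control, 3087 to 3415 for NASH vehicle and 3110 to 3405 for CDDO-Me livers. The direction of the summed change with NASH thus depended on the scaling.

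A ratio of TPM sums within a library does not depend on the scaling between libraries. Set against 25 nuclear-encoded subunits of the respiratory chain and ATP synthase (called the respiratory chain below), the summed TPM of the mitochondrial ribosome came to 44.3% to 48.2% in control livers (45.8 ± 1.8, mean ± SD, n = 4), 53.2% to 61.8% in NASH vehicle livers (59.0 ± 3.9) and 47.6% to 53.9% in CDDO-Me livers (51.4 ± 2.8). All NASH vehicle libraries were above all control libraries, while NASH vehicle and CDDO-Me overlapped, in NASH vehicle 1 (53.2%). This ratio was chosen after the levels had been seen, and it carries no test.

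**Figure D1:**
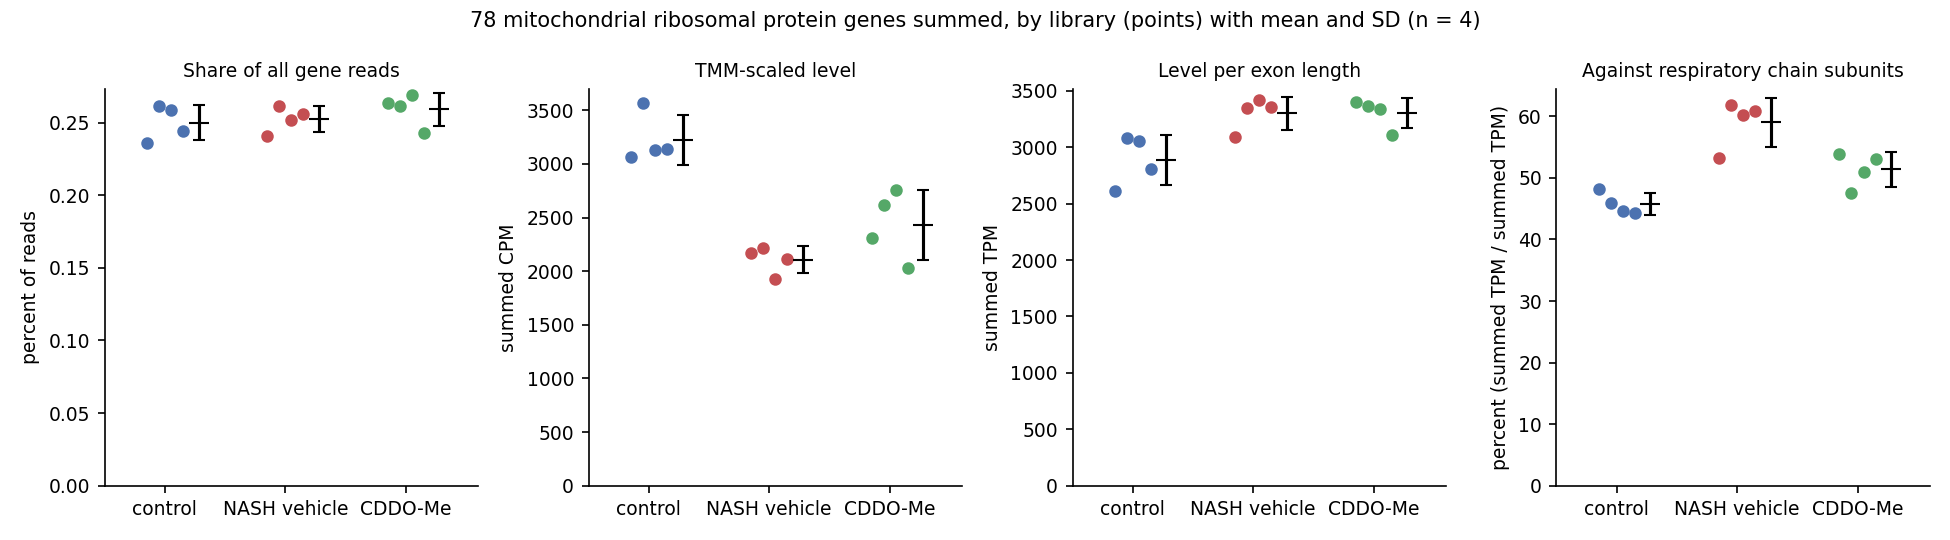
Summed level of the 78 genes in each library (points) with mean and SD (n = 4) for control, NASH vehicle and CDDO-Me livers, as percent of all gene reads, TMM-scaled CPM, TPM, and percent of the summed TPM of respiratory chain subunits. The share of reads overlaps between groups near 0.25%, the CPM sum is lower in both NASH groups and the TPM sum is lower in control, and against the respiratory chain the NASH vehicle libraries (53.2% to 61.8%) lie above control (44.3% to 48.2%).

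The 2 subunits kept close to one balance. The summed TPM of large subunit genes was 2.20 to 2.25 times that of small subunit genes in control livers, 2.13 to 2.18 times in NASH vehicle livers and 2.13 to 2.22 times in CDDO-Me livers. The NASH vehicle range lay below the control range, by little. In plain reads the same ratio was 1.93 to 1.99 in control and 1.98 to 2.03 in NASH vehicle livers, where the order is opposite and the groups overlap. When Mrps18a and Mrps30 were counted with the large subunit, where their proteins sit, and Mrps36 was left out, the TPM ratio was 2.34 to 2.37 for control, 2.30 to 2.35 for NASH vehicle and 2.28 to 2.41 for CDDO-Me livers, and the groups overlapped. No shift between the subunits was thus seen under all 3 ways of counting.

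Levels of single members spanned 26.2-fold in control livers, from 5.91 ± 0.72 TPM for Mrpl33 to 154.6 ± 19.2 TPM for Mrpl34 (mean ± SD, n = 4), with a median of 26.6 TPM. The most abundant were Mrpl34, Mrpl12 (145 ± 14 TPM) and Mrpl14 (113 ± 5 TPM) of the large subunit, and Mrps21 (123 ± 14 TPM), Mrps12 (79.9 ± 7.7 TPM) and Mrps7 (69.4 ± 4.4 TPM) of the small subunit. The ranges of Mrpl34 and Mrpl12 overlapped, as did those of Mrpl12 and Mrps21 and those of Mrps21 and Mrpl14. The authors' exon length covers all annotated transcripts of a gene, 8487 bases for Mrpl15, so TPM of genes with long alternative ends are low. The order of members was nearly the same in each group: Spearman's rho of mean TPM across the 78 genes was 0.971 between control and NASH vehicle and 0.992 between NASH vehicle and CDDO-Me. These are descriptions across genes, which share libraries and lengths and are not independent. The median coefficient of variation of CPM within a group was 10.1% for control, 8.11% for NASH vehicle and 13.1% for CDDO-Me livers.

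The first comparison, of NASH vehicle with control livers, concerns the disease model itself. On the TMM scale, RNAs of most members were lower, a direction whose median turned with library totals and in TPM: 69 of 78 were called lower, 1 (Mrpl54) was called higher and 8 did not pass in edgeR's quasi-likelihood test at an adjusted p of 0.05. Over all tested genes 30% were called lower and 29.6% higher (59.7% in either direction). Of the large subunit 44 of 49 were called lower, at a median of -0.58 (log2 fold change), and of the small subunit 25 of 29, with a median of -0.59, while the median over all tested genes was -0.01. Single values ran from -1.23 (Mrpl34) to 0.39 (Mrpl54). For 65 members every NASH vehicle library was below every control library, against 27.4% of all tested genes, and for 1 every NASH vehicle library was above, against 27%.

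The number and direction of these calls depended on the scaling, while most members lay below the median gene under each. With library totals alone, the medians turned to 0.04 and 0.04, with 15 members called lower (8.06% of all genes) and 19 higher (60.2%), while the median over all tested genes moved to 0.62. With limma-trend on log2(TPM + 1), the medians turned to 0.23 and 0.20, with 4 called lower (5.31% of all genes) and 36 higher (66.3%), and the median over all tested genes was 0.51. Relative to the median gene, the large and small subunit medians were -0.57 and -0.58 on the TMM scale, -0.57 and -0.58 with library totals and -0.27 and -0.30 in TPM. Of the 78 members, 77 lay below the median gene under TMM and library totals, and 68 in TPM. Called lower under all 3 scalings were 4 members, Mrpl34, Mrpl47, Mrps22 and Mrps31, which is a share near that of all tested genes (5.13%). Called higher under all 3 was 1, Mrpl54, where 28.4% of all genes were.

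**Figure D2:**
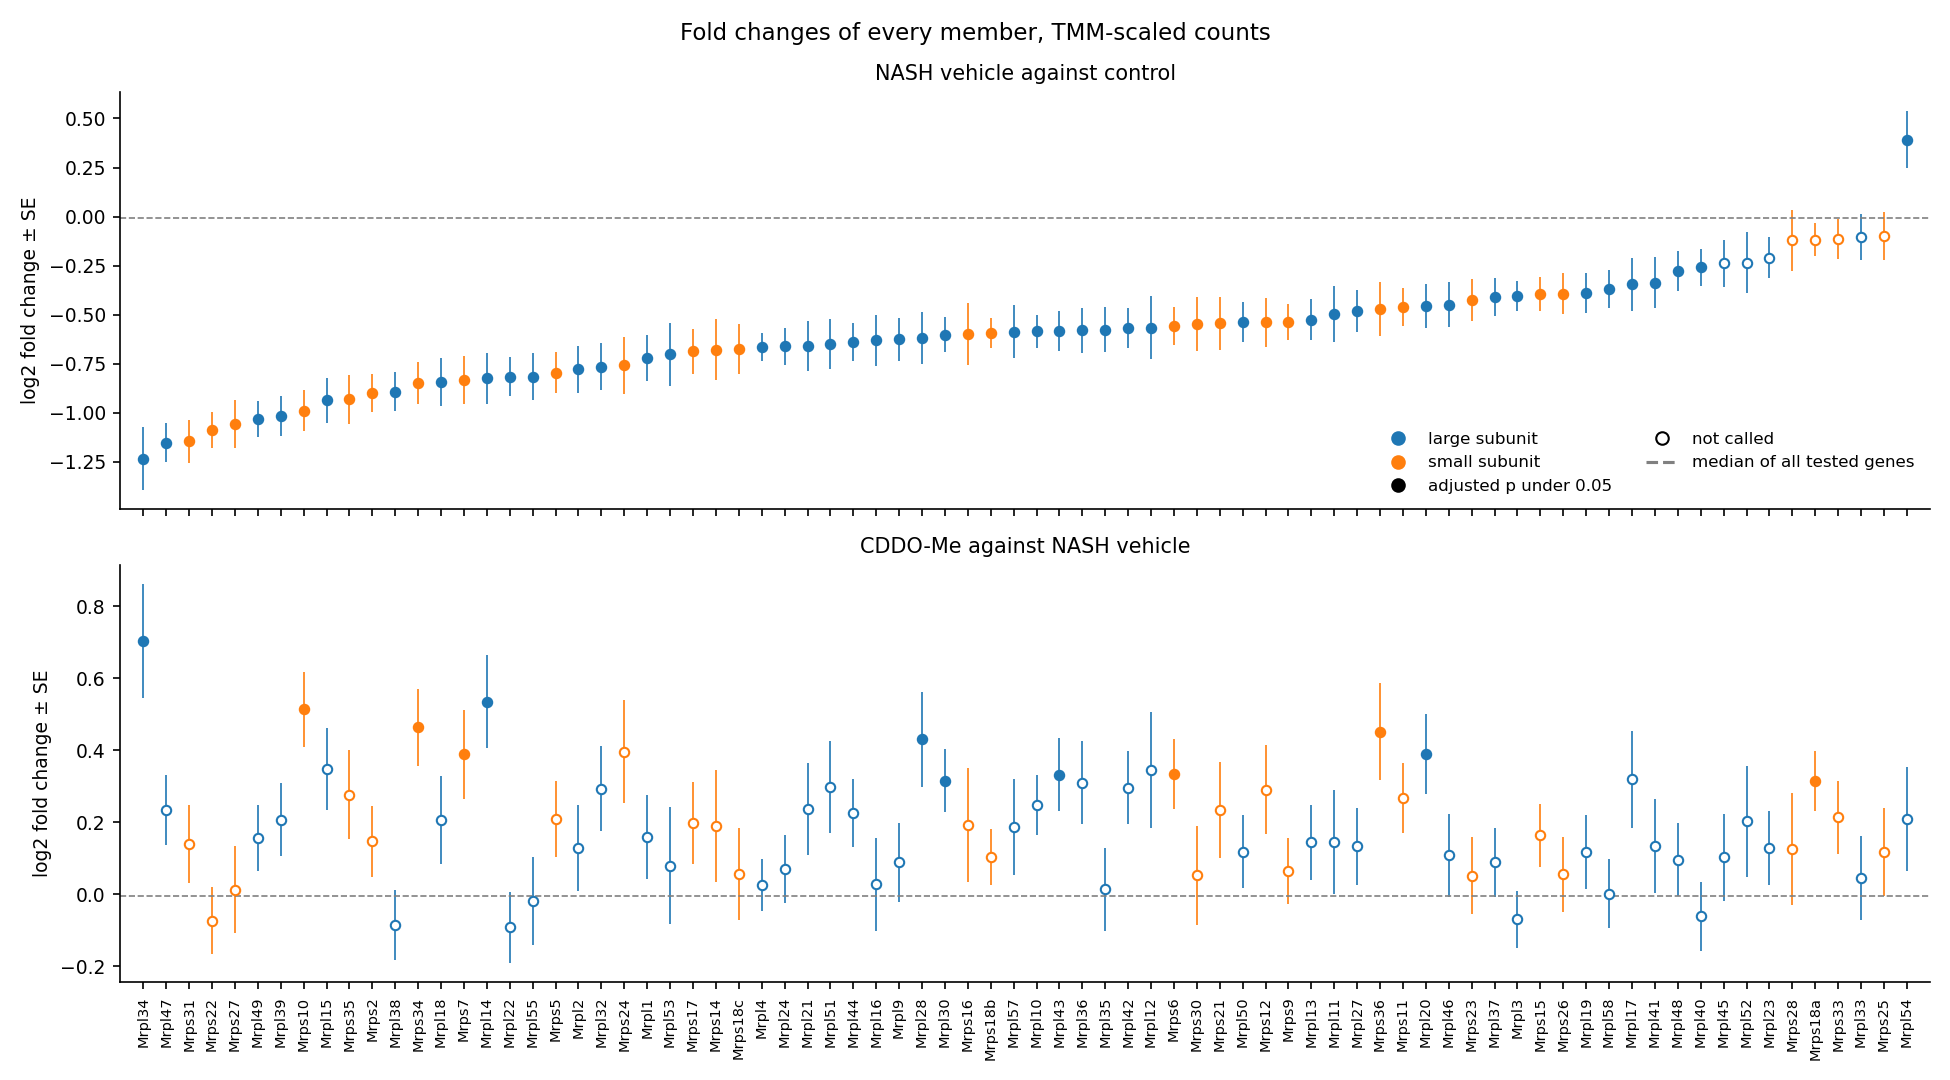
Log2 fold change (error bars, SE) of each of the 78 genes on the TMM scale, NASH vehicle against control (upper) and CDDO-Me against NASH vehicle (lower), in the order of the upper values, for large (blue) and small (orange) subunit. Filled points passed an adjusted p of 0.05, and the dashed line is the median of all tested genes. With NASH the values run from -1.23 (Mrpl34) to 0.39 (Mrpl54), and with CDDO-Me 6 lie below the line and 12 are filled. Medians of both panels' subunits turn sign in TPM.

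Among large subunit genes, Mrpl34 had the lowest fold change. Its protein has a bacterial counterpart, as do 30 of the 49 members named Mrpl. Mrpl34 (ENSMUSG00000034880, GRCm38 chromosome 8, 71464959 to 71465747) was at 52.4, 60, 55.5 and 46.1 CPM in the control libraries, at 21.7, 25.1, 20.2 and 24.1 CPM in NASH vehicle and at 31.0, 41.6, 48.5 and 27.3 CPM in CDDO-Me. All NASH vehicle values were below all others, and control and CDDO-Me overlapped. Mrpl34 fell by 1.23 ± 0.16 on the log2 scale (SE, edgeR adjusted p = 2.2e-05), by 0.61 with library totals and by 0.39 in TPM, each past the threshold.

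Mrpl47, the counterpart of a bacterial protein near the mouth of the exit tunnel, had the lowest p of the large subunit genes. It was at 17.7, 17.9, 18.8 and 18.2 CPM in the controls, at 7.78, 8.0, 8.47 and 8.4 CPM in NASH vehicle and at 9.95, 10.4, 9.89 and 8.23 CPM in CDDO-Me livers, so that control stood clear of both NASH groups. Mrpl47 fell by 1.15 ± 0.10 on the log2 scale (edgeR adjusted p = 6.3e-07), by 0.52 with library totals and by 0.30 in TPM, where the limma adjusted p was 0.040. It overlaps Actl6a and Ndufb5, and whether the counting used the strand is not given in the sources used here. Mrpl49 and Mrpl39, both proteins that bacteria lack, had TMM-scaled values of -1.03 ± 0.09 (edgeR adjusted p = 9.1e-07) and -1.02 ± 0.10 (2.4e-06), and both kept their direction in TPM without passing there (-0.19 and -0.24). Mrpl4 had 38.5 ± 1.9 CPM in control livers (mean ± SD, n = 4) and 24.3 ± 1.1 CPM in NASH vehicle livers, with a value of -0.66 ± 0.07 under TMM (edgeR adjusted p = 4.4e-06), but -0.03 with library totals and 0.15 in TPM.

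Other large subunit members have known further roles. Mrpl12, part of the flexible stalk that also binds the mitochondrial RNA polymerase, was at 124, 153, 111 and 127 CPM in the controls, at 93.7, 96.7, 73.0 and 84.4 CPM in NASH vehicle and at 96.3, 123, 141 and 81.3 CPM in CDDO-Me livers. NASH vehicle and control did not overlap, and CDDO-Me spanned both. Its value of -0.57 ± 0.16 with NASH (edgeR adjusted p = 0.0080) turned to 0.06 with library totals and to 0.27 in TPM. Mrpl44, which carries a fold of the RNase III family, was at -0.64 ± 0.10 (edgeR adjusted p = 7.2e-05), with 0.18 in TPM. Mrpl3, a core protein mutated in an inherited heart disease, was at -0.40 ± 0.08 (0.00057), turning to 0.23 with library totals and 0.34 in TPM. Mrpl58, a peptidyl-tRNA hydrolase that frees stalled ribosomes, was at -0.37 ± 0.10 (edgeR adjusted p = 0.0046), turning to 0.25 and 0.42. Mrpl45, which tethers the ribosome to the inner membrane at the tunnel exit, was at 29.6, 39.5, 30.6 and 31.3 CPM in the control libraries and at 27.9, 28.3, 23.9 and 30.9 CPM in NASH vehicle. These ranges overlapped, and the log2 fold change of Mrpl45 was -0.24 ± 0.12 (edgeR adjusted p = 0.10). With library totals and in TPM the sign turned and Mrpl45 was called higher, at 0.39 (edgeR adjusted p = 0.0051) and 0.55 (limma adjusted p = 0.00059).

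Of the small subunit, Mrps31 and Mrps22 were called lower under all 3 scalings. Both proteins are specific to mitochondria, and mutations of MRPS22 cause an inherited disorder of mitochondrial translation in people. Mrps31 (ENSMUSG00000031533, GRCm38 chromosome 8, 22411361 to 22429665) was at 40.8, 47.7, 48.8 and 49.1 CPM in the controls, at 22.3, 23.3, 18.6 and 20 CPM in NASH vehicle and at 20.5, 23.2, 27.8 and 21.3 CPM in CDDO-Me livers. Mrps22 (ENSMUSG00000032459, GRCm38 chromosome 9, 98588730 to 98601660) was at 29.5, 29.3, 27.9 and 24.1 CPM in the controls, at 13.8, 14, 11.9 and 12.4 CPM in NASH vehicle and at 12.4, 11.9, 13.2 and 12 CPM in CDDO-Me livers. For both genes control stood clear of both NASH groups, which overlapped each other. Mrps31 fell by 1.15 ± 0.11 on the log2 scale (edgeR adjusted p = 1.6e-06) and by 0.33 in TPM. Mrps22 fell by 1.09 ± 0.09 (edgeR adjusted p = 6.6e-07) and by 0.26 in TPM.

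Mrps27, an RNA-binding protein with pentatricopeptide repeats, was at -1.06 ± 0.12 on the TMM scale (edgeR adjusted p = 8.1e-06), at -0.42 with library totals and at -0.23 in TPM, where it did not pass. Mrps10 and Mrps2, both with bacterial counterparts, were at -0.99 ± 0.10 (edgeR adjusted p = 3.8e-06) and -0.90 ± 0.10 (5.0e-06), and at -0.17 and -0.06 in TPM, where neither passed. Mrps7, a protein of the head of the small subunit, was at -0.83 ± 0.12 (edgeR adjusted p = 6.6e-05) and at -0.01 in TPM. The abundant Mrps21 and Mrps12 were at -0.54 ± 0.13 (0.0031) and -0.54 ± 0.12 (0.0021), both turning to 0.09 with library totals and to 0.26 and 0.30 in TPM. Mrps12, whose bacterial counterpart guards the accuracy of decoding, was at 47.8, 55.9, 45.2 and 42.7 CPM in the control libraries and at 32.2, 35.4, 30.1 and 34.3 CPM in NASH vehicle. These did not overlap on that scale.

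3 genes named for the small subunit belong elsewhere. The proteins of Mrps18a and Mrps30 sit in the large subunit, and that of Mrps36 is a part of the oxoglutarate dehydrogenase complex. Mrps18a was at 32.6, 38, 37.2 and 38 CPM in the controls, at 33.7, 35.0, 30.9 and 34.8 CPM in NASH vehicle and at 41.5, 41.8, 46.5 and 37.4 CPM in CDDO-Me livers. Its value with NASH, -0.12 ± 0.08 (edgeR adjusted p = 0.24), is thus apart from those of most members, and with library totals and in TPM it was called higher (0.51 and 0.67). Mrps30 was at -0.55 ± 0.14 (edgeR adjusted p = 0.0036) and Mrps36 at -0.47 ± 0.14 (0.0084), and both signs turned with library totals (0.07 and 0.15) and in TPM (0.25 and 0.34). By structure, 45 of 51 large and 23 of 26 small subunit genes were called lower under TMM (30% of all tested genes). With library totals 7 large and 8 small subunit genes were called lower (8.06%), and 13 and 6 higher (60.2%). In TPM 2 and 2 were called lower (5.31%), and 26 and 9 higher (66.3%).

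On the TMM scale Mrpl54 went against the other called members. This large subunit gene, for a protein specific to mitochondria, lies on GRCm38 chromosome 10, 81264713 to 81266934 (ENSMUSG00000034932), with its start 26 bases from that of Apba3 on the other strand. It was at 15.4, 12.6, 15.7 and 15.6 CPM in the controls, at 18.4, 23, 17.1 and 19.4 CPM in NASH vehicle and at 18.2, 25.6, 27.5 and 18.7 CPM in CDDO-Me livers. Every NASH vehicle and every CDDO-Me library was above every control library. Mrpl54 rose by 0.39 ± 0.15 on the log2 scale (edgeR adjusted p = 0.032), by 1.01 with library totals and by 1.18 in TPM (31.5 ± 4.8 to 72.5 ± 8.0 TPM). With library totals 19 members were called higher and 15 lower, and in TPM 36 higher and 4 lower, Mrpl54 among those higher in both. The TMM call ended without control 2, NASH vehicle 2 or NASH vehicle 4 (edgeR adjusted p up to 0.11 in fits without 1 library) and with a replicate block.

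The other members that did not pass on the TMM scale were Mrps28, Mrpl33, Mrps33, Mrps25, Mrpl23 and Mrpl52, beside Mrpl45 and Mrps18a. For them that test missed its threshold, which does not show that they did not differ. By origin, 28 of 30 large subunit genes with a bacterial counterpart and 16 of 19 without one were called lower, with medians of -0.62 and -0.54. In the small subunit by name, where not all 29 members were placed, these were 15 of 16 and 9 of 12, with medians of -0.64 and -0.57. All 4 counts are on the TMM scale, where 30% of all tested genes were called lower. The 4 medians on that scale are close and were not tested against each other. In TPM they turned to 0.21 and 0.29 in the large and to 0.15 and 0.23 in the small subunit.

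The second comparison, of CDDO-Me with NASH vehicle livers, concerns the drug within the disease model. On the TMM scale 12 of 78 members were called higher and 0 lower, 6 in each subunit, where 9.39% of all tested genes were called higher and 7.24% lower. At an unadjusted p under 0.05, edgeR gave 25 higher (16.5% of all genes) and 0 lower (14.1%), and DESeq2 called 12 higher (10.2%) and 0 lower (11.3%). The medians were 0.14 for the large and 0.19 for the small subunit, against -0.01 for all tested genes, the values ran from -0.09 to 0.70, and 6 of the 78 lay below the median gene. For 11 members every CDDO-Me library was above every NASH vehicle library (11.4% of all genes) and for 0 every one was below (10.2%). With library totals 4 were called higher (5.63% of all genes) and 0 lower (9.66%), with medians of -0.02 and 0.02. In TPM 3 were called higher (4.73%) and 2 lower (15.8%), with medians of -0.08 and -0.03, and 15 of the 78 lay below the median gene.

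The count of 12 rested on single libraries. It was 24 without CDDO-Me 4, which had the lowest member sum of its group, and 26 without both control 3 and CDDO-Me 4. It was 3 without CDDO-Me 2, 4 without CDDO-Me 3, 7 without NASH vehicle 1, 7 without NASH vehicle 2, 4 without NASH vehicle 3 and 5 without NASH vehicle 4. Macrophage marker RNA was 4873 TPM in CDDO-Me 4, the highest of its group, and 2155 and 2339 TPM in CDDO-Me 2 and 3. Summed member CPM was 2314, 2621, 2761 and 2027 in CDDO-Me 1 to 4. The 2 libraries with the lowest macrophage RNA thus had the highest member sums on that scale. In TPM the highest member sum was that of CDDO-Me 1, at 3405, against 3363 and 3338 in CDDO-Me 2 and 3. The part of macrophage RNA in the member sums was not tested.

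Called higher under all 3 scalings were Mrpl34, Mrpl14 and Mrps34, 3 of 78, where 4.31% of all genes were, and called lower under all 3 was 0 of 78, where 6.67% were. Mrpl34, with the values above, rose by 0.70 ± 0.16 on the log2 scale (edgeR adjusted p = 0.0092), by 0.52 with library totals and by 0.45 in TPM, and every CDDO-Me library was above every NASH vehicle library. Mrpl14, a protein on the face toward the small subunit that an assembly factor covers until the subunit is complete, was at 65.1, 66.8, 60.2 and 64.9 CPM in the controls, at 41.3, 36.4, 33.6 and 33.9 CPM in NASH vehicle and at 46.6, 61.7, 62.0 and 40.0 CPM in CDDO-Me livers. CDDO-Me 4 lay within the NASH vehicle range and the other 3 above it. Mrpl14 rose by 0.53 ± 0.13 (edgeR adjusted p = 0.013), by 0.36 with library totals and by 0.27 in TPM, and its call ended without CDDO-Me 2 (edgeR adjusted p = 0.051).

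Mrps34, whose loss in people causes Leigh syndrome, was at 33.6, 33.7, 29.7 and 33.0 CPM in NASH vehicle and 40.9, 49.9, 50.2 and 38.3 CPM in CDDO-Me livers, with no overlap. It rose by 0.46 ± 0.11 (edgeR adjusted p = 0.010), by 0.30 with library totals and by 0.23 in TPM. Only 22.8% of its reads mapped to 1 place and it overlaps Nme3 and Mapk8ip3, so its level is uncertain. Mrps10 was at 22.3, 19.7, 19.2 and 16.9 CPM in NASH vehicle and 27.2, 29.4, 31.2 and 23.6 CPM in CDDO-Me livers, all above. It rose by 0.51 ± 0.10 (edgeR adjusted p = 0.0049) and by 0.35 with library totals, while its TPM value of 0.26 did not pass.

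The remaining calls held neither with library totals nor in TPM. With DESeq2's size factors in edgeR, 7 members were called higher (7.94% of all genes), Mrpl30, Mrpl20 and Mrps18a among them. Mrps18a, not called with NASH, had 0.32 ± 0.08 with CDDO-Me (edgeR adjusted p = 0.021), with 0.15 with library totals and 0.06 in TPM. Mrps36 had 0.45 ± 0.14 (0.036), Mrpl20 0.39 ± 0.11 (0.029), Mrpl30 0.32 ± 0.09 (0.027) and Mrps7 0.39 ± 0.12 (0.046), again edgeR values. Mrps6 had 0.33 ± 0.10 (edgeR adjusted p = 0.030), with 20% of its reads mapped to 1 place and 3 overlapping genes. Mrpl28 and Mrpl43 were the other 2. Of members with known further roles, Mrpl12 was at 0.35 ± 0.16 (edgeR adjusted p = 0.17), Mrpl45 at 0.10 ± 0.12, Mrpl58 at 0.0019 ± 0.10 and Mrps27 at 0.01 ± 0.12, none of which passed.

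**Figure D3:**
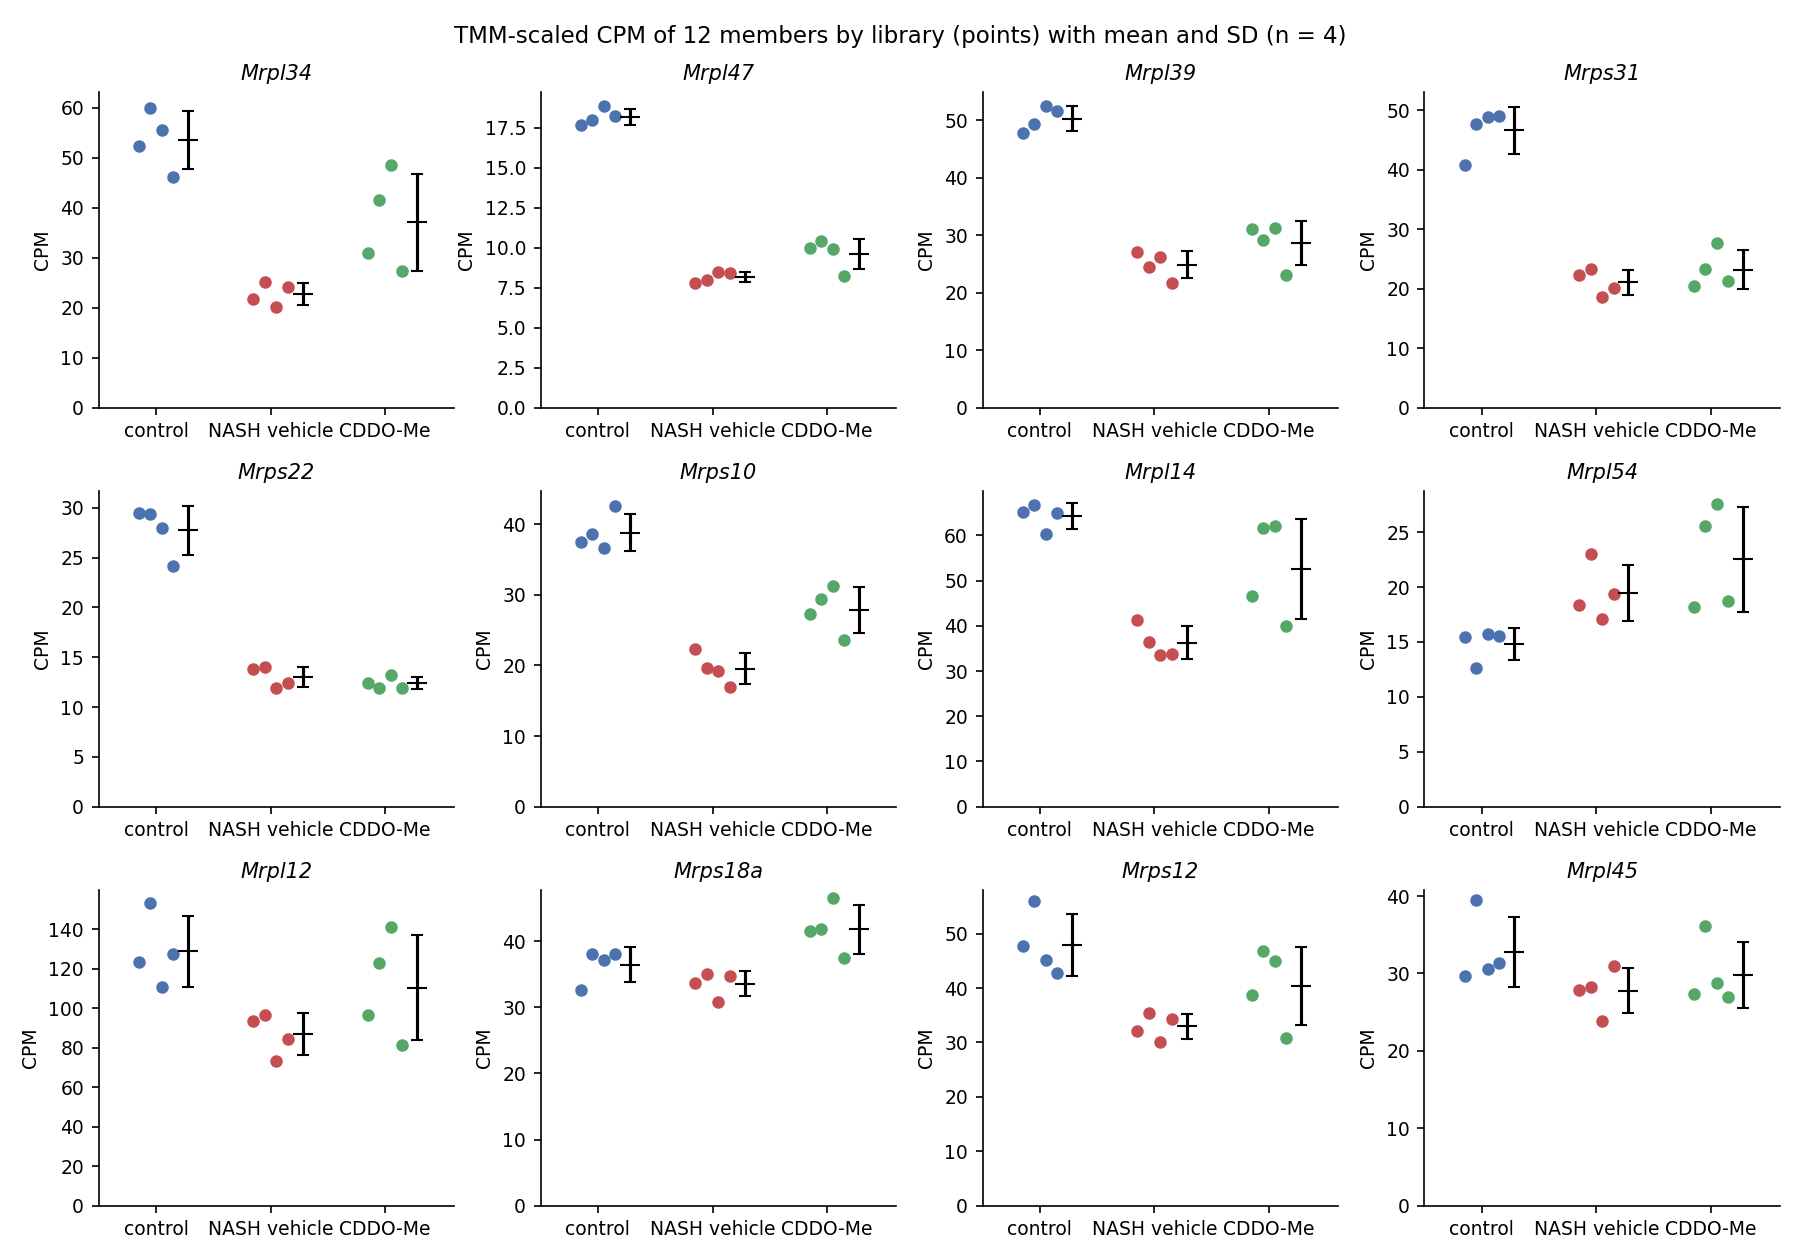
TMM-scaled CPM of 12 members in each library (points) with mean and SD (n = 4) in control, NASH vehicle and CDDO-Me livers, each panel from 0 on its own scale. Mrpl34, Mrpl47, Mrpl39, Mrps31, Mrps22, Mrps10, Mrpl14, Mrpl12 and Mrps12 have every NASH vehicle point below every control point, Mrpl54 has every one above, on a scale where the signs of Mrpl12 and Mrps12 with NASH differ from those in TPM, and CDDO-Me is above NASH vehicle without overlap for Mrpl34, Mrps10 and Mrps18a.

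The comparison of CDDO-Me with control livers shares its libraries with both others, so its values are only set beside theirs. On the TMM scale 54 members were called lower (23.6% of all genes) and 1, Mrpl54, higher (26.2%, and 49.8% in either direction), with medians of -0.37 and -0.41 in the large and small subunit. For 47 members every CDDO-Me library was below every control library (21.1% of all genes), and for 1 above (22.6%). With library totals 10 were called lower (6.84% of all genes) and 16 higher (52.7%), and in TPM 8 lower (4.93%) and 34 higher (53.7%). Called lower under all 3 scalings were 8: Mrpl47, Mrps31, Mrps22, Mrpl22, Mrpl55, Mrpl38, Mrps27 and Mrpl39, where 4.78% of all genes were. Mrpl34 was at -0.53 ± 0.16 (edgeR adjusted p = 0.013) and turned to 0.06 in TPM. Over the 3 comparisons on the TMM scale, 49 members were called lower in both NASH groups than in control with no call between those groups. Another 5 (Mrpl30, Mrpl34, Mrps7, Mrps34 and Mrps10) were called lower with NASH, higher with CDDO-Me and still lower than control. A further 6 (Mrpl14, Mrpl20, Mrpl28, Mrpl43, Mrps6 and Mrps36) were called lower with NASH and higher with CDDO-Me, and were not called between CDDO-Me and control. An interval for that last difference was not computed, nor was the share of all tested genes with each of these patterns. The calls with NASH and with CDDO-Me share the NASH vehicle libraries, so a low value there enters both.

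Other genes of mitochondrial translation had medians near those of the members with NASH on the TMM scale, and theirs too depended on the scaling. The counts that follow are on that scale, where 30% of all tested genes were called lower. Of 5 ribosomal proteins with other names, 5 were called lower (median -0.69), from Dap3, a GTP-binding protein of the small subunit (-0.27 ± 0.10, edgeR adjusted p = 0.028), to Ptcd3, a pentatricopeptide repeat protein (-1.02 ± 0.10, 1.8e-06). Dap3 turned to 0.35 with library totals. Of 16 translation factors and partners (called translation factors below) 16 were called lower (median -0.64). That list also holds Lrpprc, Slirp, Oxa1l, Pdf and Mtfmt, which are not factors in the narrow sense. In it were Tufm, the elongation factor that brings aminoacyl-tRNA to the ribosome (151 ± 20 to 95.5 ± 7.3 CPM), and Taco1, a translational activator (-1.14 ± 0.12, edgeR adjusted p = 2.9e-06). Of 25 genes of ribosome assembly and rRNA modification 17 were called lower and 0 higher (median -0.43), with Rpusd3, a pseudouridine synthase family member, at -1.44 ± 0.11 and the rRNA methyltransferase gene Nsun4 at -1.0 ± 0.09. Of 20 genes of aminoacyl-tRNA synthesis 16 were called lower (median -0.54) and of 10 genes of mitochondrial DNA upkeep and transcription 10 (median -0.65), Tfam, which packs mitochondrial DNA, among them (-0.79 ± 0.12). Tfam turned to 0.02 in TPM, and Tufm to 0.18. With library totals the medians of these 5 lists were -0.07, -0.02, 0.20, 0.08 and -0.01 in the order given, and in TPM 0.12, 0.16, 0.31, 0.20 and 0.10. Over all tested genes 8.06% were called lower and 60.2% higher with library totals, and 5.31% and 66.3% in TPM. The calls of the lists thinned or turned with their medians: with library totals 2 translation factors were called lower and 2 higher, and 1 upkeep gene lower and 2 higher. In TPM 1 translation factor was called lower and 3 higher, and 0 upkeep genes lower and 3 higher. Assembly genes came to 3 lower and 9 higher with library totals and 2 lower and 13 higher in TPM, and aminoacyl-tRNA genes to 1 lower and 5 higher, then 1 lower and 8 higher. Of the 5 proteins with other names, 2 were called lower and 1 higher with library totals, and 0 lower and 1 higher in TPM.

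Nuclear-encoded partners and mitochondrial mRNAs were set beside the members, with no test between lists. All 25 nuclear-encoded respiratory chain subunits that were tested were called lower with NASH, with a median of -0.99 on the TMM scale. With library totals 22 were called lower (median -0.37) and in TPM 8 (median -0.17), against 8.06% and 5.31% of all tested genes. Of the 13 mRNAs of the mitochondrial genome, which the mitochondrial ribosome itself reads, 5 were called lower (median -0.76), where 30% of all tested genes were. For 1 of the 13 every NASH vehicle library was below every control library. Their summed TPM was 201701 in control 1 and 80517 to 116982 in the other control libraries. NASH vehicle libraries, at 107792 to 157210 TPM, lay within that control range. With library totals and in TPM 0 of the 13 were called (medians -0.14 and 0.21), and in TPM that median is close to the 0.22 of all 78 members. With CDDO-Me, 14 of 25 respiratory chain subunits were called higher (median 0.46), 14 with library totals (0.29) and 5 in TPM (0.24), and 0 of 13 mitochondrial mRNAs (median 0.20). Of other lists, 2 of 25 assembly genes, 2 of 16 translation factors and 1 of 10 upkeep genes were called higher with CDDO-Me, near the 9.39% of all tested genes. Of 20 aminoacyl-tRNA synthesis genes 0 were called higher and 1, Pars2, lower, where 7.24% of all tested genes were lower. Of 5 ribosomal proteins with other names 0 were called. The upkeep gene called higher was Tfb2m, a transcription factor of mitochondria (19.2 ± 1.7 to 28.5 ± 1.9 CPM, 0.57 ± 0.09, edgeR adjusted p = 0.0013).

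Among 9 regulators of nuclear genes for mitochondria, 3 were called lower with NASH under TMM (median -0.08): Gabpa (-0.61 ± 0.07), Esrra (-0.55 ± 0.13) and Yy1 (-0.41 ± 0.09). That share is near the 30% of all tested genes called lower. All 3 values turned with library totals, to 0.02, 0.08 and 0.22. Nrf1, for nuclear respiratory factor 1, was at 0.16 ± 0.12 (edgeR adjusted p = 0.27). With CDDO-Me 1 of the 9 was called higher, a share near the 9.39% of all tested genes. This was the coactivator gene Ppargc1a. It was at 7.47 ± 0.97 CPM in control, 8.91 ± 1.28 CPM in NASH vehicle and 13.9 ± 2.8 CPM in CDDO-Me livers, and rose by 0.64 ± 0.16 with CDDO-Me (edgeR adjusted p = 0.015), with 0.48 with library totals and 0.32 in TPM, where it did not pass. The lists were chosen with earlier results known and carry no test of their own.

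**Figure D4:**
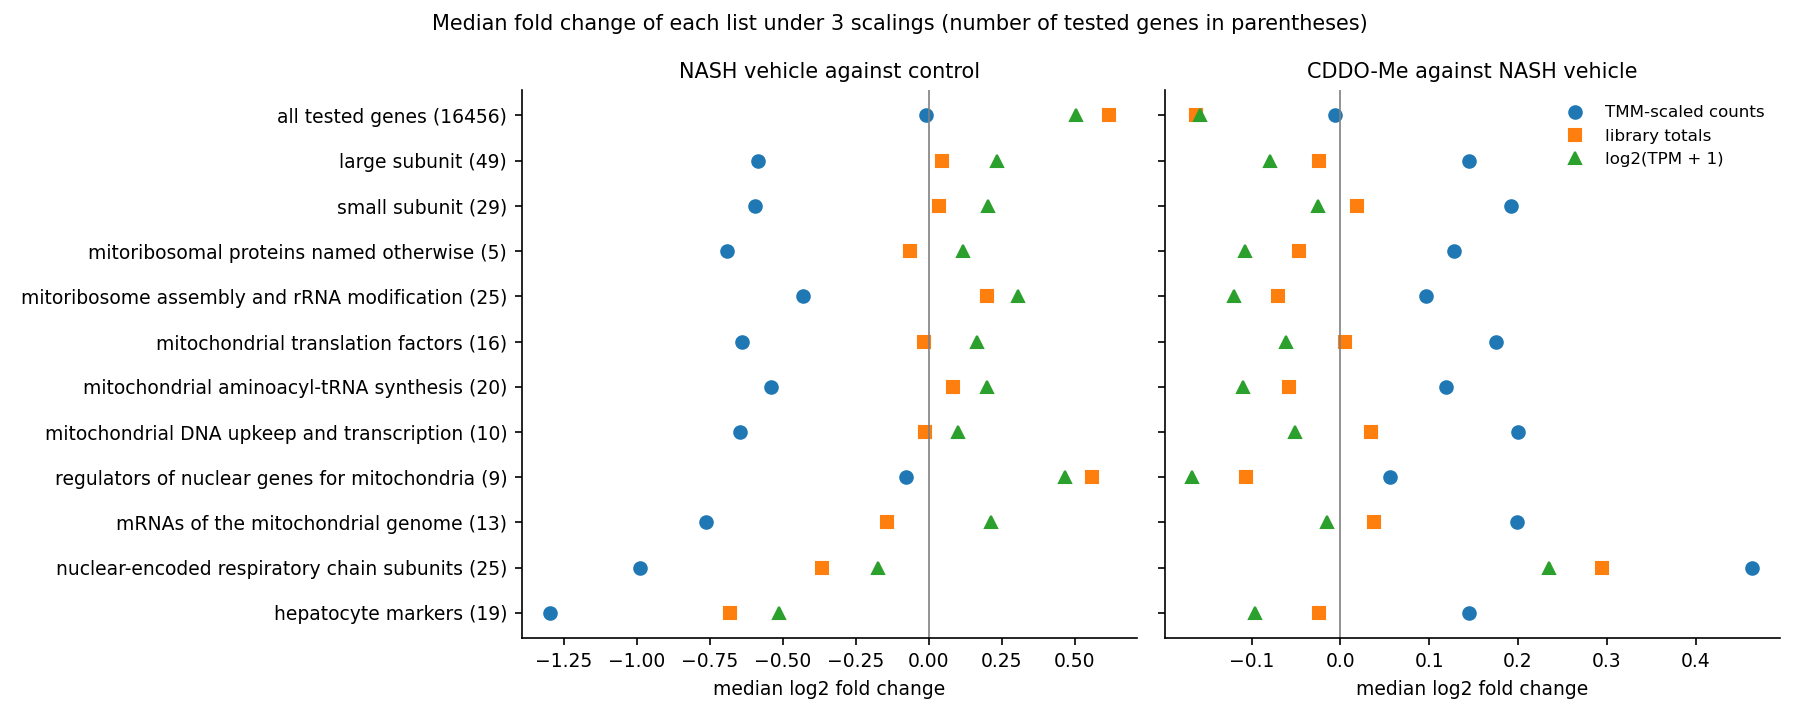
Median log2 fold change of each gene list (rows, number of tested genes in parentheses) for NASH vehicle against control (left) and CDDO-Me against NASH vehicle (right), from TMM-scaled counts, library totals and log2(TPM + 1). With NASH the medians of both ribosomal subunits move from -0.58 and -0.59 under TMM to 0.23 and 0.20 in TPM, always to the left of all tested genes (-0.01, 0.62 and 0.51) and to the right of the respiratory chain (-0.99, -0.37 and -0.17).

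In the genome the members often start next to another gene. For 33 of 78 (42.3%) the start lay within 1000 bases of the start of a protein-coding gene running the other way, compared with 14.9% of 14576 tested protein-coding genes. Mrpl46 and Mrps11 face each other at 412 bases, and had values of -0.45 ± 0.11 and -0.46 ± 0.10 with NASH on the TMM scale (edgeR adjusted p = 0.0040 and 0.0010), which turned to 0.37 and 0.33 in TPM. Mrps12 faces Sars2, the gene of the mitochondrial seryl-tRNA synthetase, at 172 bases, and Sars2 was at -0.71 ± 0.12 on the TMM scale, turning to 0.07 in TPM. Overlap with a gene on the other strand was found for 41.0% of members and 39.2% of tested protein-coding genes.

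Because most members lay on the same side of the median gene, their promoters were searched for motifs of factors known to drive nuclear genes for mitochondria. RefSeq promoters of the GRCm38.p6 build, 250 bases before to 50 after the start, were matched by symbol for 69 members. The letters searched, on both strands, were GCGCA, then any base, then GCGC for nuclear respiratory factor 1 (the protein of Nrf1, not of Nfe2l2), CCGGAAG for ETS factors such as GABPA, and AAGATGGCG for YY1. No matches of different motifs shared bases in these promoters. The first was present in 13 of 69 (18.8%, against 5.19% of all genes in the table and 10.4% of tested protein-coding genes), the second in 26 (37.7%, against 9.93% and 18.3%) and the third in 8 (11.6%, against 1.64% and 3.19%). At least 1 of them was in 41 (59.4%, against 15.1% and 28.4%). Median log2 fold changes with NASH on the TMM scale were -0.59, -0.56 and -0.57 for members with each motif and -0.63 for the 28 with none, so the 4 medians were close. They were not tested against each other. A match is a description of the sequence and not a measured site.

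Stretches around a match are shown for 4 members named above, to set side by side the gene with the lowest value with NASH, a member not called on the TMM scale and 2 others. Each runs 5′ to 3′ along the gene, with the match in capitals, and lies outside every gene in the deposited tables. That of Mrpl34 (chr8:71464864-71464920, plus strand) and that of Mrps27 (chr13:99344713-99344769, plus strand) hold the ETS letters, the latter on the opposite strand. Those of Mrpl45 (chr11:97315653-97315712, plus strand) and Mrpl12 (chr11:120484531-120484590, plus strand) hold the letters of nuclear respiratory factor 1, the latter again on the opposite strand.
Mrpl34: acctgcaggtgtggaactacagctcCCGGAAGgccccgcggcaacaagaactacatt
Mrps27: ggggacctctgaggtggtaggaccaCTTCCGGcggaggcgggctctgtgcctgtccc
Mrpl45: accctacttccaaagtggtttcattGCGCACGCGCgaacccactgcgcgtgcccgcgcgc
Mrpl12: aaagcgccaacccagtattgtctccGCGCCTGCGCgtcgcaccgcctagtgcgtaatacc
Mrpl34 and Mrps27, both with the ETS letters, were at -1.23 and -1.06 with NASH on the TMM scale and at 0.70 and 0.01 with CDDO-Me. Mrpl12 and Mrpl45, both with the letters of nuclear respiratory factor 1, were at -0.57 and -0.24 with NASH. Mrps27 also holds the YY1 letters, and Mrpl45 holds further matches of nuclear respiratory factor 1. These are 4 chosen members, and a link between letters and values was not tested.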

How the data were processed

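Polyadenylated RNA of mouse liver was sequenced in 12 libraries with 75 bp paired-end reads, per the labels' protocols. The deposited tables give whole read counts per gene (total, unique, exon, junction and intron reads), TPM and RPKM from the authors, and, per the file headers, what fraction of a gene's reads was unique or intronic. The build is GRCm38, per the submitters' processing notes. Aligner, counter and use of strand: not given in the sources used here. Total gene reads were analysed with edgeR 4.0.16 in R 4.3.3: filterByExpr by group (minimum count 10, minimum total 15, which left 16456 genes), TMM scaling and a robust quasi-likelihood fit of 3 group means to 12 libraries. Comparisons were two-sided with Benjamini-Hochberg adjustment over all tested genes, called at 0.05. CPM are TMM-scaled, and the SE of a log2 fold change is its size divided by the square root of the F statistic. TPM were tested with limma 3.58.1 on log2(value + 1), which understates changes of low genes, and DESeq2 1.42.0 was an alternative. RPKM entered only the subunit ratio. On data simulated for CDDO-Me against NASH vehicle, edgeR recovered 6%, 30%, 74% and 98% of 50 genes each changed 1.3-, 1.5-, 2- and 4-fold, with 3 false calls among 16256 unchanged genes. That simulation fitted only the 8 libraries of 2 groups and changed far fewer genes than were called in the data. It therefore does not give the power of the reported tests.

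Members, lists, tests and alternatives were chosen with earlier results of these data known. Named members are the 4 called ones per subunit with the lowest p in NASH vehicle against control and in CDDO-Me against NASH vehicle, the 3 per subunit with the highest TPM in control, members called against the majority (at most 4), and 10 fixed by role. Mrpl54 was the only one called against the majority, which was taken on the TMM scale. The others in the text come from exhaustive lists of 8 or fewer, level extremes or facing starts, named after their values were seen. Mrpl53 (0.32% of reads mapped to 1 place), Mrps6 and Mrps34 are uncertain. The labels neither link same-numbered libraries nor say that libraries of a group came from separate animals, so p-values measure only the spread between these libraries, which may be technical. Alternatives were other scalings, filters, read classes, tools, a replicate block, 8 or 10 libraries and leaving out each library. Values relative to the median gene were added after seeing the data. Promoters came from RefSeq, and 9 members had no match.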

Additional observations from a re-analysis of the deposited data

Results flagged for a closer look

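In 7 of 93 groups of 4 libraries tested, 1 library lay far from the other 3 by Dixon's criterion at the 95% level, where chance alone flags about 1 in 20 groups. Control 1 was low for Mrps31 (40.8 CPM against 47.7 to 49.1) and for Mrps18a (32.6 against 37.2 to 38). Control 2 was low for Mrpl54 (12.6 CPM against 15.4 to 15.7), and high for the summed CPM of the large subunit (2376 against 2025 to 2077) and of the small subunit (1192 against 1041 to 1066). CDDO-Me 4 was low for Mrpl58 (23.8 CPM against 29.8 to 30.2), and NASH vehicle 4 for Mrps27 (21.2 CPM against 22.7 to 22.9).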

How the results depend on the processing

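Values without a named comparison below are of NASH vehicle against control, then of CDDO-Me against NASH vehicle, then of CDDO-Me against control. Library totals gave 19 members higher and 15 lower, then 4 higher, then 16 higher and 10 lower. TPM gave 36 higher and 4 lower, then 3 higher and 2 lower, then 34 higher and 8 lower. DESeq2's size factors gave 7 higher with CDDO-Me against NASH vehicle. Without control 3 and CDDO-Me 4 (10 libraries) 26 were higher in that comparison and 2 in CDDO-Me against control, and a filter of 50 reads in 4 libraries also gave 2 there. Without 1 library each, the counts were 0 to 1, 3 to 24 and 1 to 2 higher. Large subunit medians were 0.045, -0.024 and 0.10 with library totals and 0.23, -0.080 and 0.22 in TPM. Small subunit medians were 0.037 and, for CDDO-Me against control, 0.049 with library totals, and 0.20, -0.026 and 0.16 in TPM. Relative to the median gene in TPM, an alternative chosen after seeing the data, the large subunit was at -0.27 and, for CDDO-Me against control, -0.15, and the small subunit at -0.30 with NASH. Subunits by structure gave TPM ratios of 2.35, 2.33 and 2.34 for control, NASH vehicle and CDDO-Me. DESeq2, exon or unique reads, no filter and 8 libraries left the member counts within 1.5 times of the reported ones. The cause of these differences was not tested.

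Signs turned for these members. With library totals the NASH values were Mrpl30 0.025, Mrpl20 0.18, Mrps18a 0.51, Mrps6 0.074, Mrpl12 0.062, Mrps21 0.087, Mrps12 0.093, Mrpl3 0.23, Mrpl45 0.39, Mrpl58 0.25, Mrps30 0.074 and Mrps36 0.15. With library totals the CDDO-Me values against NASH vehicle were Mrpl49 -0.0081, Mrpl4 -0.14, Mrps31 -0.024, Mrps2 -0.015, Mrpl45 -0.060, Mrpl58 -0.16, Mrps27 -0.16 and Mrps30 -0.12. In TPM the NASH values were Mrpl4 0.15, Mrpl30 0.21, Mrpl20 0.35, Mrps18a 0.67, Mrps6 0.23, Mrpl12 0.27, Mrps21 0.26, Mrps12 0.30, Mrpl3 0.34, Mrpl44 0.18, Mrpl45 0.55, Mrpl58 0.42, Mrps30 0.25 and Mrps36 0.34. In TPM the CDDO-Me values against NASH vehicle were Mrpl47 -0.035, Mrpl49 -0.066, Mrpl39 -0.062, Mrpl4 -0.19, Mrps31 -0.10, Mrps2 -0.073, Mrpl54 -0.027, Mrps21 -0.0057, Mrpl44 -0.00013, Mrpl45 -0.12, Mrpl58 -0.19, Mrps27 -0.26 and Mrps30 -0.17. The other turns, all of CDDO-Me against NASH vehicle, were near 0: DESeq2's size factors gave Mrpl4 -0.0071, Mrpl58 -0.030 and Mrps27 -0.018, DESeq2 gave Mrpl4 -0.0077, Mrpl58 -0.030 and Mrps27 -0.019, no filter gave Mrpl58 -0.0034, 50 reads gave Mrpl58 -0.0039, 8 libraries gave Mrpl58 -0.011 and Mrps27 -0.00056, and exon reads gave Mrps27 -0.025. Without 1 library each, these values ran from -0.00092 to 0.16 for Mrpl45, -0.061 to 0.080 for Mrpl58, -0.036 to 0.12 for Mrps27 and -0.11 to 0.16 for Mrps30.

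Same-numbered libraries did not deviate together (correlations of deviations from -0.223 to 0.187, with 2 of 12 over 0.1 and 0 of 12 libraries closest to their own number in both other groups), so the numbers are not taken as pairs. A fit with a replicate block gave 0 higher and 68 lower with NASH, and 9 higher with CDDO-Me against NASH vehicle. With 28161057 or more reads per library and at least 212 reads per member, every member could be tested. On the data simulated for CDDO-Me against NASH vehicle, 4 libraries per group recovered 30% of 1.5-fold changes. That setting differs from the reported fit and does not give its power.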
